A study of Mus musculus with 10 samples.

Results

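The immediate early response genes are 10 genes, taken by symbol from the 23337 genes of the count files: Fos, Fosb, Jun, Junb, Egr1, Egr2, Atf3, Ier2, Nr4a1 and Dusp1. All 10 were found, and 9 of them had at least 1 count in every library. The libraries were poly(A)-selected bulk RNA-Seq of the left ventricle (LV) and the skeletal muscle (SkM) of 5 mice, so that each mouse gave 1 library of each tissue. The WT group had 2 mice and the E0del/+ group 3. E0del/+ mice carry 1 allele of Ttn without E0, a conserved sequence in the first intron of the gene. All came from C57BL/6 E0del/+ mice crossed with 129SvEv WT mice, so the WT mice share this hybrid background. The deletion is in the germline and thus present in every cell type of both tissues. The sources do not say which muscle was taken or how the tissues were dissected.

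Immediate early genes are kept at a low level in resting cells and are transcribed within minutes of a stimulus, because the factors that activate them are already bound or present and need no new protein synthesis. Mitogen-activated protein kinases, calcium signals and actin dynamics reach them through the ternary complex factors with SRF, the CREB and ATF proteins and the myocardin-related factors. Their transcripts carry signals for rapid decay, so a level in frozen tissue can reflect the time shortly before and during its removal. In heart and muscle they are known to respond to stretch, contraction, ischemia, adrenergic drive and handling of the tissue. The members belong to different parts of this response. Fos, Fosb, Jun and Junb are subunits of the AP-1 transcription factor, Egr1 and Egr2 are zinc finger factors induced through SRF, Atf3 is a stress-induced factor of the ATF/CREB family, Nr4a1 is an orphan nuclear receptor, Ier2 encodes a short-lived nuclear protein, and Dusp1 is a phosphatase that switches off mitogen-activated protein kinases.

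The sequence upstream of 8 of these genes was searched for motifs that they share. Windows of 300 bases, from 250 before to 50 after the transcription start, were taken from RefSeq on GRCm38.p6. No window was found for Egr1 and Ier2, and sites further upstream were not searched. The motif TGACG, the core of the cAMP response element, stood on either strand in 7 of these 8 windows (Jun had none), against 20.8% of 32851 windows of all genes. The full palindrome TGACGTCA, which contains TGACG, was found in the window of Dusp1 and in 1.79% of all windows. The CArG box, to which SRF binds, was found in that of Egr2 and in 1.63% of all windows. The AP-1 motif TGANTCA was in 0 of the 8 windows and in 7.81% of all, and the TATA motif TATAAA was in those of Fos and Junb and in 13.6% of all. The GC box motif GGGCGG, which is printed in lower case, was in 6 of the 8 windows and in 35.7% of all. A match is a run of letters, not a measured binding site. The windows of 4 genes are printed as examples of different patterns of level in the libraries: Atf3 stood apart in 1 LV, Fos was not raised with it, Nr4a1 was higher in SkM than in LV, and Dusp1 varied least. Capitals mark TGACG and its palindrome on either strand, and TATAAA.

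Fos chr12:85473640-85473939 plus strand: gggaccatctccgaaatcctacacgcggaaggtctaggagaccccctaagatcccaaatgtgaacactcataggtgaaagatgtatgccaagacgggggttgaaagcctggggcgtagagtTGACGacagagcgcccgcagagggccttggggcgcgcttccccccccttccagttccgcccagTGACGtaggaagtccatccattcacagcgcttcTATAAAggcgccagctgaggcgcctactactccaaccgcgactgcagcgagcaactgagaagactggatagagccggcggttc
Atf3 chr1:191183284-191183583 minus strand: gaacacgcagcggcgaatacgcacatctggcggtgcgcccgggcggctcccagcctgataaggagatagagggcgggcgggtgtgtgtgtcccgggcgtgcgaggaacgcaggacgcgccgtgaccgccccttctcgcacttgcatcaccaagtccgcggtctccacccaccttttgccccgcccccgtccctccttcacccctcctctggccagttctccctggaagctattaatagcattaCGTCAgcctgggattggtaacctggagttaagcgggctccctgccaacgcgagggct
Nr4a1 chr15:101266596-101266895 plus strand: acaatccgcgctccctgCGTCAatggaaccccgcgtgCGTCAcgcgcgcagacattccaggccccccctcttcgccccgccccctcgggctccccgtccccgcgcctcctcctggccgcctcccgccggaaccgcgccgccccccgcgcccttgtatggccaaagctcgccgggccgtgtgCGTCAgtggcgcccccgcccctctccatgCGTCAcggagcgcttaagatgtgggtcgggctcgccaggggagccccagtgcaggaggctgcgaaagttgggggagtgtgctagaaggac
Dusp1 chr17:26508423-26508722 minus strand: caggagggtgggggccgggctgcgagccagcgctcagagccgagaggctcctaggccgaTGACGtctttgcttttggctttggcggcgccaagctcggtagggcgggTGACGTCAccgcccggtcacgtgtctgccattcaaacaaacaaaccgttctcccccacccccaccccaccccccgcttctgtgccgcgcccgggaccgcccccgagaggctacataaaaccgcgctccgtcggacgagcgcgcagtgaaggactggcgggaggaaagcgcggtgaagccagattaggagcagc

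Total gene counts were between 11010021 and 17484873 per library, with a median of 14050602, and levels are given as CPM, the raw count scaled to the total of its library. Ventricular genes summed to 51308 to 74724 CPM in LV and to 86.9 to 447 CPM in SkM, and fast skeletal muscle genes to 104872 to 115628 CPM in SkM. Before the results, 3 libraries need to be described. In the WT LV replicate 2 library the 7 fast skeletal muscle genes summed to 26151 CPM, against 108 to 123 CPM in the other 4 LV libraries, which is 21.7% of their level in E0del/+ SkM replicate 3 by the median gene. Adipocyte genes summed to 284 CPM there, against 2.01 to 24.2 CPM in the other LVs. They were at 8.98 CPM in WT SkM replicate 2, of the same mouse, and at 1198 CPM in E0del/+ SkM replicate 3. By Xist and the Y-linked genes, WT mouse 2 and E0del/+ mouse 3 were Y-bearing in both tissues and the other 3 mice expressed Xist (278 to 806 CPM). The WT SkM replicate 1 library, with 397 CPM of Xist, also held Ddx3y, a Y-linked gene, at 12.5 CPM, against 0.33 and 0.37 CPM in the other Xist-expressing SkM libraries and 94.1 and 108 CPM in the Y-bearing ones. In the WT SkM replicate 2 library the marker sums of endothelial cells (139 CPM, against 226 to 294 in the other SkM libraries), fibroblasts (148 CPM), leukocytes (28.2 CPM) and smooth muscle cells and pericytes (75.2 CPM) were the lowest of the 5. No gene of these 4 marker lists was at 0 in all libraries. In bulk tissue, fewer cells of a type and less RNA per cell cannot be told apart.

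**Figure D1:**
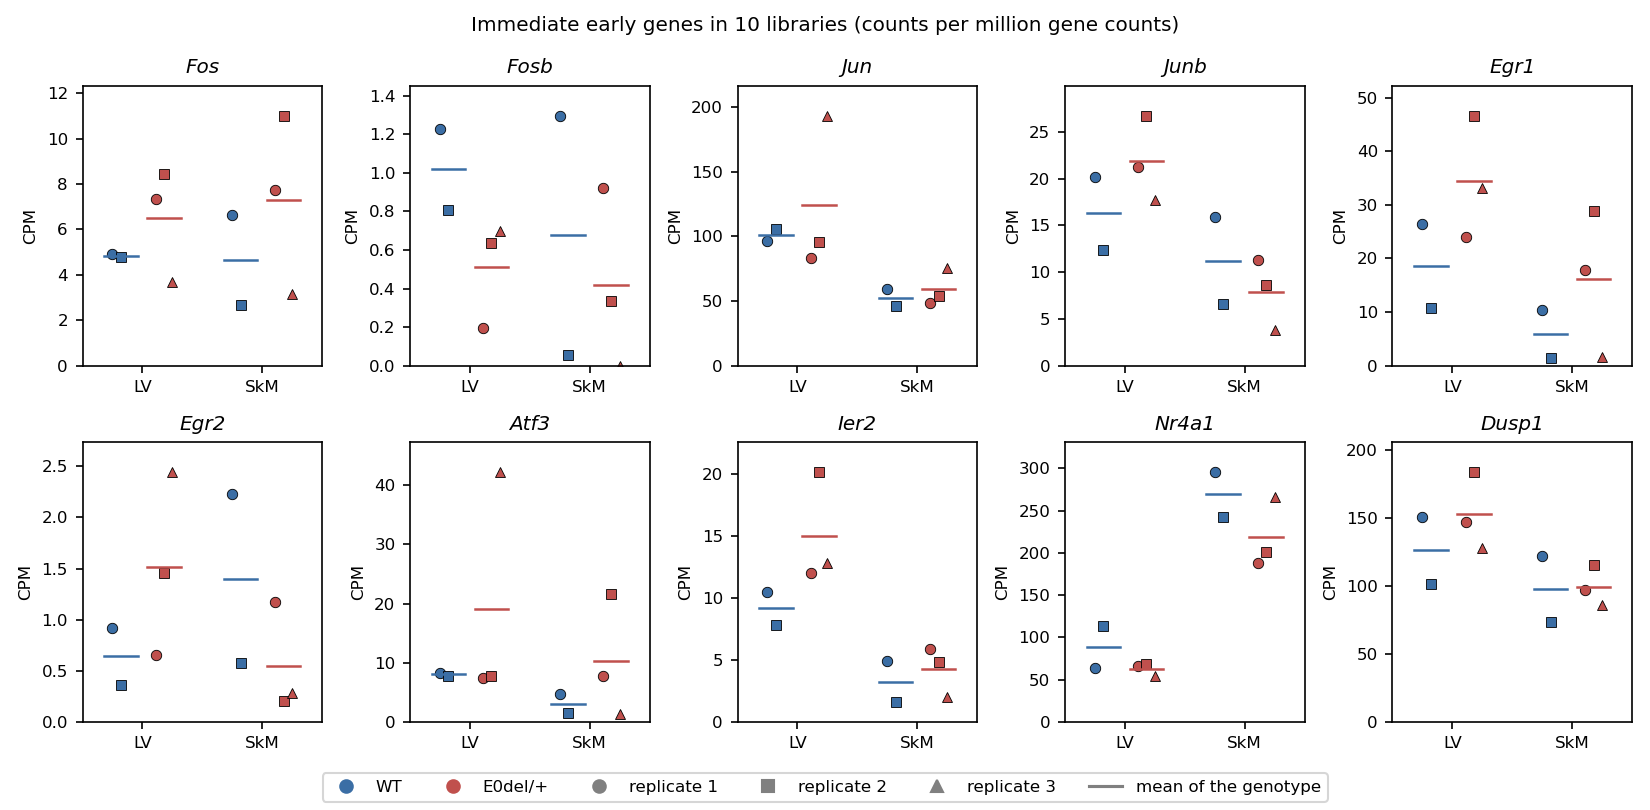
CPM of the 10 genes in each library, with LV and SkM on the horizontal axis of each panel, WT in blue, E0del/+ in red, the replicate number as the symbol and the mean of each genotype as a line. Each panel has its own vertical axis from 0. The triangle of Atf3 in LV, at 42.2 CPM, is E0del/+ replicate 3, and the other LV points of Atf3 lie between 7.42 and 8.22 CPM.

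Positions are those of the count files on mm10, where Fos starts 11 bases after the RefSeq start used for its window. Fos (chr12:85473901-85477270, plus strand), whose protein pairs with Jun proteins in AP-1, stood at 4.92 and 4.77 CPM in the WT LVs and at 7.36, 8.45 and 3.66 CPM in the E0del/+ LVs of replicates 1 to 3. In SkM it was at 6.62 and 2.69 CPM in WT and at 7.75, 10.99 and 3.17 CPM in E0del/+. E0del/+ mouse 2 was highest in both tissues by CPM, and the WT values lay inside the E0del/+ range in LV. Fosb (chr7:19302696-19310045, minus strand), a relative of Fos, was close to the limit of detection, with 3 to 16 counts in each LV library (0.195 to 1.23 CPM) and 0 to 18 counts in each SkM library. It had 0 counts in E0del/+ SkM replicate 3, which allows a level of up to 0.211 CPM by 3 counts, and 1 count in WT SkM replicate 2. These intervals cover counting error only, because reads from polymerase chain reaction are not independent molecules. In LV its 3 E0del/+ values (0.195, 0.636 and 0.698 CPM) lay below those of both WT mice (1.23 and 0.810 CPM), but its counts were under the filter of the test there. Without that filter the log2 fold change was -1.08 (standard error 0.75, edgeR adjusted p = 0.975796).

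Jun (chr4:95049036-95052222, minus strand), the usual partner of Fos, stood at 96.5 and 106 CPM in the WT LVs and at 83.5, 95.4 and 193 CPM in the E0del/+ LVs. In SkM it was at 59.2 and 46.1 CPM in WT and at 48.7, 53.9 and 75.2 CPM in E0del/+. E0del/+ mouse 3 was highest in both tissues, and the other 4 mice lay within a narrow range in each. An antisense gene, Junos, overlaps the exons of Jun on the other strand, and the library kit does not mark strand, so their reads cannot be told apart. Junb (chr8:84976909-84978748, minus strand), an AP-1 subunit that can restrain Jun, stood at 20.2 and 12.4 CPM in the WT LVs and at 21.3, 26.7 and 17.7 CPM in the E0del/+ LVs. The SkM values were 15.9 and 6.58 CPM in WT and 11.3, 8.59 and 3.80 CPM in E0del/+. The genotypes overlapped in both tissues.

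Egr1 (chr18:34861207-34864956, plus strand), a factor induced by growth signals and stretch, stood at 26.5 and 10.7 CPM in the WT LVs and at 24.0, 46.6 and 33.1 CPM in the E0del/+ LVs. In SkM it ranged over 21.0-fold, from 10.4 and 1.37 CPM in WT to 17.8, 28.8 and 1.62 CPM in E0del/+. The 2 low SkM values came from 24 and 23 counts, in WT mouse 2 and E0del/+ mouse 3. Egr2 (chr10:67537869-67542188, plus strand), its relative best known from nerve myelination, was rare, at 0.36 to 2.44 CPM in LV and 0.2 to 2.23 CPM in SkM. Its highest LV was E0del/+ replicate 3, with 28 counts, and its highest SkM was WT replicate 1, with 31 counts.

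Atf3 (chr1:191170297-191183333, minus strand), which is induced by injury, metabolic stress and cytokines, stood apart in 1 LV and was high in 1 SkM. Its level was 8.22 and 7.83 CPM in the WT LVs and 7.42, 7.81 and 42.2 CPM in the E0del/+ LVs, so 4 of the 5 LVs lay close together and E0del/+ replicate 3 was 5.14-fold above the next. The SkM libraries held 4.68 and 1.54 CPM in WT and 7.81, 21.6 and 1.27 CPM in E0del/+. The mouse with the highest LV value had the lowest SkM value, and the SkM value was 0.03 times that of its LV. Ier2 (chr8:84661331-84662852, minus strand), which is induced by growth factors, stood at 10.52 and 7.83 CPM in the WT LVs and at 12.0, 20.2 and 12.8 CPM in the E0del/+ LVs, all above both WT LVs. In SkM it was lower, at 4.89 and 1.60 CPM in WT and at 5.91, 4.86 and 2.04 CPM in E0del/+.

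Nr4a1 (chr15:101266846-101274794, plus strand), which responds to adrenergic signals and contraction in muscle, stood at 63.8 and 114 CPM in the WT LVs and at 65.9, 68.4 and 54.2 CPM in the E0del/+ LVs. In SkM it was at 295 and 243 CPM in WT and at 188, 201 and 266 CPM in E0del/+. Every SkM value was above every LV value, as it was for 23.2% of all genes on the normalized scale. The high LV value is in WT replicate 2, the library with skeletal muscle transcripts, in which 57.7 CPM of Nr4a1 correspond to its skeletal share; 71.8 CPM were left once the skeletal counts were subtracted and the library total was taken anew. Dusp1 (chr17:26505591-26508472, minus strand), the phosphatase of the group, stood at 151 and 101 CPM in the WT LVs and at 147, 183 and 128 CPM in the E0del/+ LVs. Its SkM values were 122 and 73.2 CPM in WT and 96.8, 115 and 86.1 CPM in E0del/+.

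Levels between genes were compared by deposited RPKM, which divides by the summed exon length. By the median over 5 mice, the order in LV was Dusp1 (75.6 RPKM), Jun (30.3), Nr4a1 (26.6), Junb (10.98), Egr1 (8.63), Ier2 (7.91), Atf3 (3.96), Fos (2.35), Egr2 (0.311) and Fosb (0.185). The ranges over the mice did not overlap at 2 steps of this order: Nr4a1 was at least 21.9 RPKM and Junb at most 14.5 RPKM, and Fos was at least 1.75 RPKM and Egr2 at most 0.824 RPKM. The ranges of the other neighbours overlapped, although Dusp1 was above Jun within each of the 5 mice. In SkM, Nr4a1 led with a median of 98.1 RPKM and Dusp1 followed with 49.9 RPKM, and the range of Nr4a1 (75.9 to 119 RPKM) lay above that of Dusp1 (37.7 to 62.6 RPKM). Jun (16.9 RPKM) came next, with a range of 14.5 to 23.6 RPKM that did not reach Dusp1. The remaining 7 genes reached at most 10.9 RPKM in any SkM library, and the ranges of neighbours among them overlapped.

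The spread between mice was wider than that of most genes. On the log2 scale of TMM-normalized CPM with a prior count of 2, the median standard deviation of the 10 genes over 5 mice was 0.49 in LV and 0.77 in SkM, where the median over 14327 genes was 0.25 and 0.28. In LV, Atf3 had the widest spread (SD 1.14, wider than that of 97.6% of genes), and it was narrow for Dusp1 (SD 0.22, 42.1%). In SkM the widest were Egr1 (SD 1.90, 98.0%) and Atf3 (SD 1.61, 96.7%), and the narrowest were Dusp1 (SD 0.23, 39.9%), Jun (SD 0.27, 48.0%) and Nr4a1 (SD 0.28, 49.98%). The 500 genes nearest in level had a median SD of 0.61 for Fosb and 0.53 for Egr2 in LV, against 0.23 for Atf3 and 0.19 for Egr1.

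**Figure D2:**
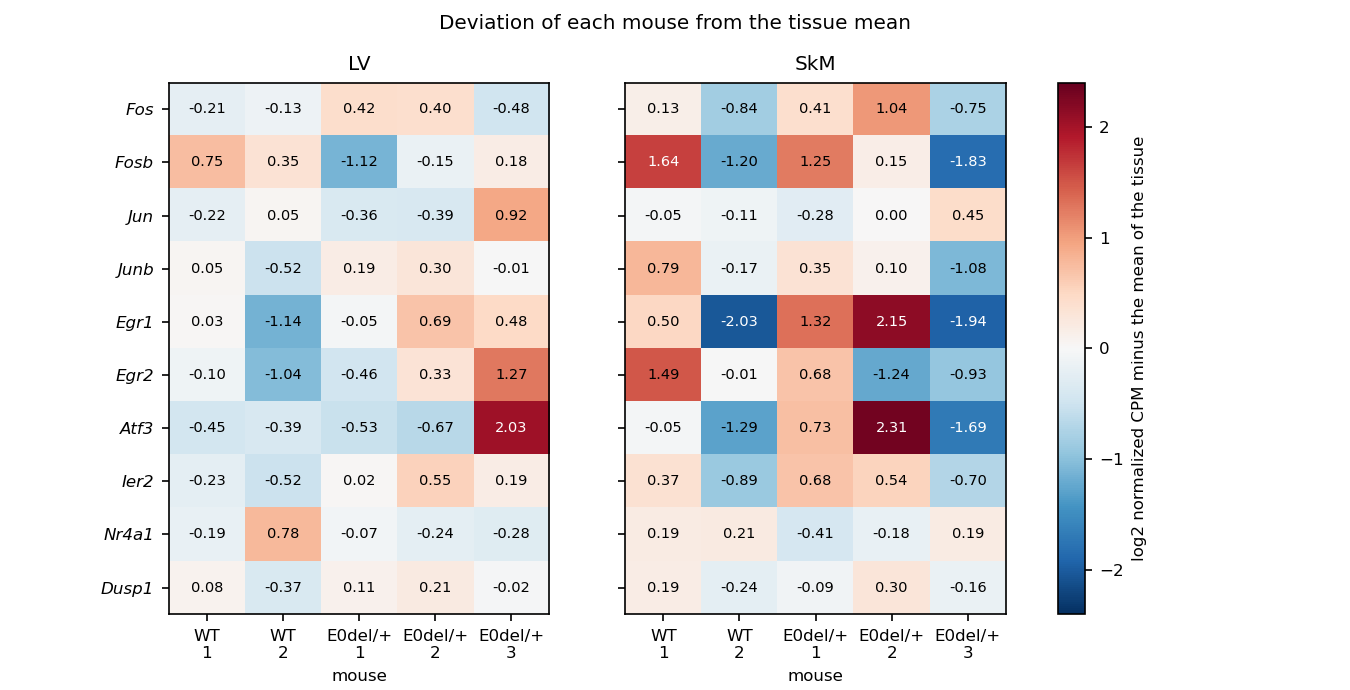
Deviation of log2 normalized CPM of each mouse from the mean of the 5 mice, for LV on the left and SkM on the right, with genes in rows and mice in columns and the value printed in each cell. Red is above and blue is below the mean. E0del/+ mouse 3 has 2.03 for Atf3 in LV and -1.69 in SkM.

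Whether the tissues of a mouse moved together was read from these deviations. Of the 50 pairs of gene and mouse, 29 (58%) had the same sign in LV and SkM, against 52.8% over all genes. WT mouse 2, whose LV library held skeletal muscle transcripts, had the same sign for 8 of 10 genes, against 56.7% of all genes. The other mice had it for 4 to 6 of the members. Junb had the same sign in 5 of 5 mice, Fos and Dusp1 in 4, and Fosb and Egr2 in 1. The LV deviation of Junb was very small in E0del/+ mouse 3 (-0.0057) and in WT mouse 1 (0.046). Thus 3 of 10 genes agreed in at least 4 mice, against 24.7% of all genes. The mouse with the highest LV was also the mouse with the highest SkM for 5 of the 10 genes, against 22.3% of all genes, and that with the lowest for 3, against 21.7%. Among the 5 was Nr4a1 in WT mouse 2, where 57.7 of the 114 CPM in LV correspond to its skeletal share. Its SkM deviation there (0.209) was close to those of E0del/+ mouse 3 (0.193) and WT mouse 1 (0.188). By CPM, the highest SkM of Nr4a1 and of Dusp1 was WT replicate 1 instead, while Fos was highest in E0del/+ mouse 2 in both tissues. Fosb, also among the 5, had at most 18 counts in a library. By the deviations, E0del/+ mouse 2 was highest and WT mouse 2 lowest in both tissues for Egr1 and Dusp1. WT mouse 2 lay below the tissue means on average, by -0.29 in LV and -0.66 in SkM. E0del/+ mouse 3 was split, with a mean deviation of 0.43 in LV and -0.84 in SkM, and only Jun was above the mean in both of its tissues. A correlation across mice is not given, because 5 mice are too few. Over all genes tested, the deviations of LV and SkM of a mouse from the means of their groups had correlations of -0.103 to 0.0918. The WT group had 2 mice, whose deviations mirror each other, so both share the same value (0.0897). Genes are not independent replicates.

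In SkM the low values gathered in WT mouse 2 and E0del/+ mouse 3, the Y-bearing mice. Both lay below the other 3 mice for 7 of the 10 genes (Fos, Fosb, Junb, Egr1, Atf3, Ier2 and Dusp1), where 19.5% of all genes showed this. In LV they did so for 2 of the 9 genes tested, against 17.4% of all genes. Some marker sums were low in both of these SkM libraries and some were not. The endothelial sums were 139 and 226 CPM, against 274 to 294 CPM in the other 3, and the ventricular sums were 86.9 and 112 CPM, against 226 to 447 CPM. The fibroblast sums were 148 and 539 CPM, the lowest and the highest of the 5, and the leukocyte sums (28.2 and 107 CPM) and those of smooth muscle cells and pericytes (75.2 and 198 CPM) were lowest in WT SkM replicate 2 alone. Their part in the low values was not tested, and sex and mouse cannot be told apart here.

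E0del/+ LV replicate 3 was described further because Atf3 stood out there. In that library 12 of 13420 genes (0.0894%) were more than 1 log2 unit above every other LV library, and 5 of these 12 are immediate early genes of the member list or of a wider list of 42. Beside Atf3 these were Ier5 (111 CPM, against 25.2 to 32.8 in the other LVs), Btg2 (126 CPM, against 38.1 to 55.9), Cyr61 (163 CPM, against 59.6 to 70.1) and Ctgf (439 CPM, against 118 to 140). Btg2 is an antiproliferative gene, and Cyr61 and Ctgf encode matricellular proteins known as targets of YAP and SRF. Otud1 (123 CPM, against 23.3 to 31.3) was also among the 12. This library was highest for 3 of the 9 members tested in LV, against 21.8% of all genes, and lowest for 2, against 18.1%. It was highest for 17 of 37 genes of the wider list, 7 of 11 heat shock genes, 6 of 12 glucocorticoid-responsive genes, 2 of 9 genes of the integrated stress response and 3 of 20 upstream regulators. Fos, at 3.66 CPM, was lowest of the 5 LVs in the same library. Its fast skeletal muscle genes (109 CPM) and its leukocyte markers (249.2 CPM) lay within the range of the other LVs, and its sums of fibroblast (913 CPM) and smooth muscle and pericyte genes (513 CPM) were the lowest of the 5. Its atrial genes summed to 450 CPM, against 615 CPM in E0del/+ LV replicate 2 and 216 to 244 CPM in the remaining LVs. Their part in the result was not tested.

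**Figure D3:**
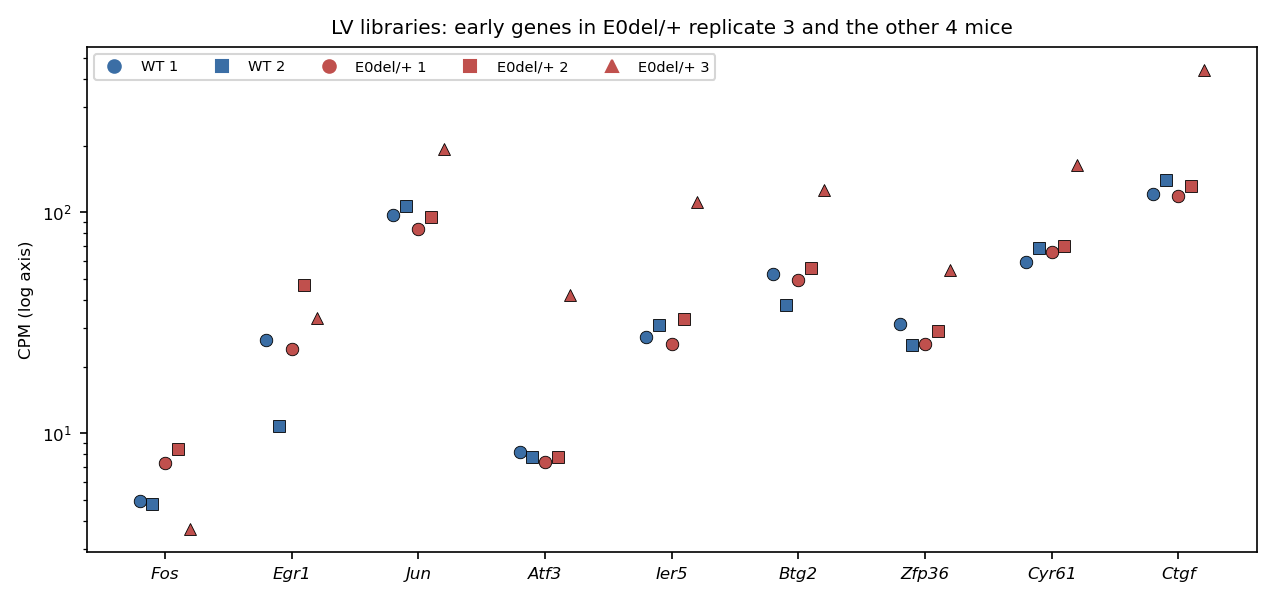
CPM on a log axis of 9 early genes in the 5 LV libraries, with WT in blue, E0del/+ in red and the replicate number as the symbol. The triangle, E0del/+ replicate 3, is highest for Jun, Atf3, Ier5, Btg2, Zfp36, Cyr61 and Ctgf and lowest for Fos (3.66 CPM).

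In E0del/+ SkM replicate 2, 13 of 13154 genes (0.0988%) were above every other SkM library by more than 1 log2 unit, and Atf3 (21.6 CPM) was the only immediate early gene among them. The others were Csrp3 (214 CPM, against 11.8 to 42.0), which encodes muscle LIM protein, Ankrd2 (177 CPM, against 25.6 to 52.8), Xirp1 (525 CPM, against 118 to 276), Hspb1 (137 CPM, against 50.1 to 69.2), a small heat shock protein, and Mrgprg, Smpd3, Chrna9, Gm1078, Myom3, Lmcd1, Zscan18 and Ces5a. On the normalized scale this library was also the highest SkM for Fos, Egr1 and Dusp1. It was thus highest for 4 of 10 members, against 16.8% of all genes, and lowest for 1, Egr2, against 15.4%.

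The levels of SkM and LV were compared over all 10 libraries with the quasi-likelihood test of edgeR, adjusting p-values by Benjamini-Hochberg. Both libraries of a mouse entered this fit as separate samples. Nr4a1 was higher in SkM, with a log2 fold change of 2.31 (standard error 0.20, edgeR adjusted p = 2.19e-05) and in 5 of 5 mice, by 2.13-fold to 4.91-fold in CPM. Ier2 was lower, with a log2 fold change of -1.06 (standard error 0.33, edgeR adjusted p = 0.0199), and in 5 of 5 mice. These 2 of 10 genes were the only members called, 1 in each direction, where 59.9% of 14327 genes were called (28.5% higher and 31.4% lower). With the mouse as a block, the same 2 members and 7972 genes were called. Nr4a1 then had 2.34 (edgeR adjusted p = 1.88e-04) and Ier2 -1.15 (edgeR adjusted p = 0.0143). The call of Nr4a1 held when any 1 library was left out (edgeR adjusted p = 1.32e-05 to 1.46e-04), and its log2 fold change was 2.59 without WT LV replicate 2. That of Ier2 was lost without WT LV replicate 1 (edgeR adjusted p = 0.0612) and without WT SkM replicate 2 (edgeR adjusted p = 0.0648). Without E0del/+ SkM replicate 3, Fos was called as well (log2 fold change 0.88, edgeR adjusted p = 0.0296).

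The fold changes of Nr4a1 and Ier2 and the result for the other genes depend on the scaling between the tissues. With total counts in place of TMM, the median log2 fold change of all genes moved from -0.04 to -0.65, and 5 of 10 members were called, against 68.6% of all genes. Jun then had a log2 fold change of -1.005 and Junb one of -1.01, and Dusp1 turned from 0.12 to -0.50. Nr4a1 moved to 1.70 and Ier2 to -1.66, and both were still called. In CPM, Jun was lower in SkM in 5 of 5 mice, by 1.63-fold to 2.57-fold, and Dusp1 by 1.24-fold to 1.60-fold. With TMM, which removes the shift of all genes, Jun had -0.41 and Junb -0.40, and neither was called. On that scale, 0 of the 10 genes had all 5 SkM libraries below all 5 LV libraries, against 26.8% of all genes.

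**Figure D4:**
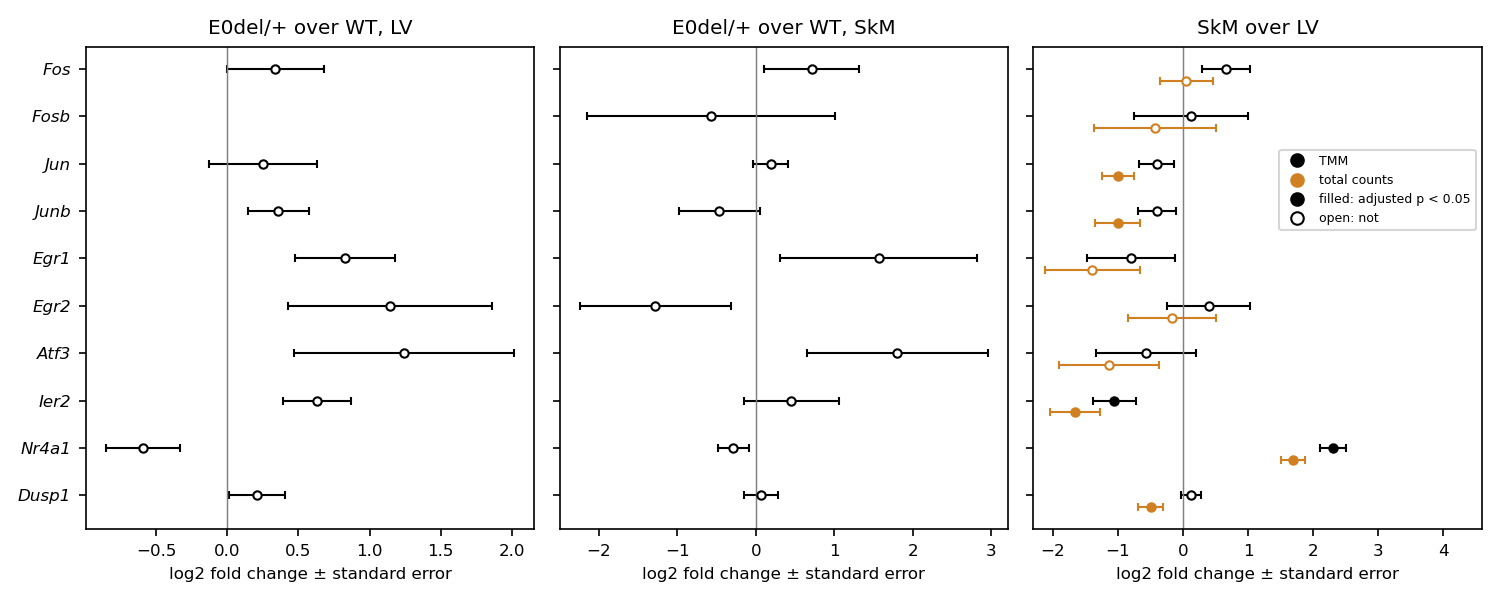
Log2 fold change with its standard error for each gene, for E0del/+ over WT in LV, E0del/+ over WT in SkM and SkM over LV, with TMM in black and total counts in orange in the last panel. Filled points have an edgeR adjusted p under 0.05, which holds for Nr4a1 (2.31) and Ier2 (-1.06) with TMM. Fosb has no LV point because its counts were too low to be tested.

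Both tissues were then compared between E0del/+ and WT to ask whether loss of 1 copy of E0 goes with a change of this response. In LV, 0 of the 9 members tested were called by edgeR with an adjusted p under 0.05, as were 0% of all 13420 genes, and 2 members and 564 genes (4.2%) had an unadjusted p under 0.05. DESeq2 also called 0 genes. With the replicate number, which is also the batch tag, as a block, 5 genes and 0 members were called. The 2 members were Egr1, with a log2 fold change of 0.83 (standard error 0.35, edgeR adjusted p = 0.9974), and Ier2, with 0.63 (standard error 0.24). Some marker sums were high in the libraries with high levels and others were not. The LVs of E0del/+ replicates 2 and 3, the highest for Egr1 and Ier2, held 615 and 450 CPM of atrial genes, against 216 to 244 CPM in the other 3. That of replicate 2 also had the highest endothelial (2464 CPM, against 1192 to 1717) and leukocyte sums (374 CPM, against 234 to 325). That of replicate 3 had 1379 CPM of endothelial and 249 CPM of leukocyte genes. Its fibroblast (913 CPM) and smooth muscle and pericyte sums (513 CPM) were the lowest. The part of these sums in the result was not tested. All 3 E0del/+ LVs lay above both WT LVs for Ier2 alone of the 9 genes, where 10% of all genes did so, and for 0 genes all lay below, against 6.42%. The median log2 fold change of the 9 genes was 0.36, against -0.01 for all genes, and it was 0.68 without WT LV replicate 1.

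Leaving out each LV library in turn moved Ier2 between 0.44 and 0.79, with no change of sign or call. For other members, single libraries weighed more. Egr1 had a log2 fold change of 0.37 without WT LV replicate 2, the library with skeletal muscle transcripts, and 1.54 without WT LV replicate 1 (edgeR adjusted p = 0.0233). Without that replicate 1, when WT LV replicate 2 is the only WT library, Nr4a1 also passed, with -0.99 (edgeR adjusted p = 0.0230), as did 578 of 14050 genes in that fit, 574 of them lower, against -0.59 with all libraries and -0.13 once the skeletal share was subtracted. Atf3 had 1.24 (standard error 0.77), and -0.19 without E0del/+ LV replicate 3. Jun had 0.25, and -0.30 without the same library. Within batch 1, where 1 WT and 1 E0del/+ mouse share a batch tag, E0del/+ was at 0.904 times WT for Egr1 and 1.14 times for Ier2, and within batch 2 at 4.35 times and 2.58 times. Batch 3 held an E0del/+ mouse only.

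In SkM, 0 of 10 members were called by edgeR, as were 0% of 13154 genes, and 0 members and 114 genes (0.867%) had an unadjusted p under 0.05. DESeq2 called 0 genes, and with the replicate number as a block 1 gene and 0 members were called. For 0 of the 10 genes did all E0del/+ values lie above both WT values (5.51% of all genes) or below both (6.05%). Atf3 had a log2 fold change of 1.80 (standard error 1.15) and Egr1 one of 1.57 (standard error 1.26), with an edgeR adjusted p of 0.999766 for each. In both genes E0del/+ mice 1 and 2 were high and WT mouse 2 and E0del/+ mouse 3 low, and with Xist expression as a block the values were 0.95 and 0.90. With the replicate number as a block they were 2.22 and 2.42, with an edgeR adjusted p of 0.998862 for each and an unadjusted edgeR p of 0.0176 and 0.0191. Without WT SkM replicate 1, which carried Y-linked transcripts beside Xist, Egr1 was 3.43 (standard error 1.72), and without WT SkM replicate 2 it was 0.78. Without E0del/+ SkM replicate 2, in which Atf3 stood apart, Atf3 was 0.56 (standard error 0.98) and Egr1 was 0.77. Over the libraries left out in turn, Atf3 ranged from 0.56 to 2.62. Within batch 1 Egr1 was 1.72 times WT and within batch 2 it was 21.0 times. The differences between the tissues in the effect of genotype were tested by the interaction, where 0 of 10 members and 0% of 14327 genes were called, with 477 genes (3.33%) and 0 members at an unadjusted p under 0.05. DESeq2 called 1 gene there, which is no member.

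The related lists were read as counts, with TMM. In SkM against LV, 6 of 39 other immediate early genes were higher and 20 were lower by edgeR, with a median log2 fold change of -0.93, where 28.5% of all genes were higher and 31.4% lower. The shares of all genes are the same for the lists that follow. The largest were Ctgf (-3.57, 190 CPM in LV and 9.31 CPM in SkM), Gadd45g (3.16), Dusp2 (3.12) and Arc (-2.58). Of 20 upstream regulators, 12 were higher and 2 were lower, with a median of 0.57; Mkl1, a myocardin-related cofactor of SRF, had 2.57, Elk3, a ternary complex factor, had -2.25, Mapk14, the p38 kinase, had 1.57, and Map2k4, a kinase upstream of it, had 1.43. Of 11 heat shock genes 1 was higher and 5 were lower, with Hspa5, the endoplasmic reticulum chaperone, at -1.54, Dnajb1 at -1.10, Hsp90aa1 at -1.04 and Bag3 at -0.93. Of 9 genes of the integrated stress response 2 were higher and 2 lower. These were Gdf15, a secreted stress factor, which was lower, at 2.27 CPM in LV and 0.0248 CPM in SkM (too few counts for a fold), Chac1 (3.15), Atf4 (1.61) and Trib3 (-1.56). Of 12 glucocorticoid-responsive genes 4 were higher and 2 lower, led by Mt1, a metallothionein (-2.53), Sgk1 (1.64), Fkbp5 (1.62) and Tsc22d3 (1.38). Between the genotypes, 0 genes of any of these lists were called in either tissue by edgeR. At an unadjusted p under 0.05 there were 1 of 37 other immediate early genes, 1 of 20 upstream regulators, 1 of 11 heat shock genes, 2 of 9 genes of the integrated stress response and 3 of 12 glucocorticoid-responsive genes in LV, against 4.2% of all genes. In SkM there was 1 of the 12 glucocorticoid-responsive genes and 0 of the other lists, against 0.867% of all genes.

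The genes whose pattern over the 10 libraries lay nearest to the mean deviation of the members were found among 10341 genes with a mean of at least 5 CPM. The nearest were Rhpn2 (root mean square difference 0.19 in log2), Adam19 (0.20), Cnksr3 (0.20), Slc16a6 (0.21), Sgol2 (0.21), Cdca4 (0.22), Pdlim1 (0.23), Dchs1 (0.23), Snn (0.23) and Fgf9 (0.23). The median over the genes compared was 0.53, and a flat profile gave 0.47. The points share the same 10 libraries and scaling factors.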

How the data were processed

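Gene counts of 10 bulk RNA-Seq libraries were analysed, from both tissues of 5 mice. The authors deposited raw counts and RPKM per gene. Per the submitters' processing notes, STAR, DESeq2 and mm10 were used. The counting software and annotation are not given in the sources used here. Counts were the input of all tests and RPKM served for levels between genes. CPM used total gene counts. The members and lists were chosen with earlier results of these data known. The model fits used edgeR 4.0.16 under R 4.3.3 (filterByExpr, TMM, quasi-likelihood, Benjamini-Hochberg, threshold 0.05). The alternatives were DESeq2 1.42.0, its size factors, total counts, other filters, 1 fit over all libraries, blocks, subtraction of skeletal counts and leaving out each library. The tests were checked on simulated data with independent libraries and the same dispersion for all genes. The check therefore does not cover members with a wide spread. Named are all 10 members, up to 4 called genes of each other list by size of change, and the 10 genes nearest to the mean pattern. Genes of E0del/+ LV replicate 3 and SkM replicate 2 were chosen after their values were seen. The batch tag equals the replicate number and so gives a WT partner to E0del/+ mice 1 and 2. Correlations of the deviations of paired mice were 0.0334 and -0.115 in LV and 0.518 and 0.310 in SkM. The deviations of the WT mice mirror each other, so the values of a tissue are not independent. Library names tie both tissues to 1 mouse. P-values measure the spread between the mice of a group. In SkM against LV and the interaction, both libraries of a mouse entered as separate samples, except with the mouse as a block.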

Additional observations from a re-analysis of the deposited data

Results flagged for a closer look

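Atf3 in the LV of E0del/+ replicate 3 stood at 42.2 CPM, apart from the other 4 LV libraries by a gap of 0.897 of the whole range on the log2 scale, where 0.71 is Dixon's critical value for 5 samples. Nr4a1 in the LV of WT replicate 2 stood at 114 CPM, with a gap of 0.802 of the range. This is the library with skeletal muscle transcripts, and 71.8 CPM were left after their subtraction. Chance flags about 1 in 20 groups, and among all genes 9.76% had such a library in LV and 5.1% in SkM.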

How the results depend on the processing

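Of the members, Nr4a1 in SkM against LV was called under every alternative run. The replicate number as a block gave 5 called genes between the genotypes in LV and 1 in SkM, with 0 members, and turned Jun (-0.30) and Atf3 (-0.19) in LV and Fosb (0.39) and Jun (-0.027) in SkM; the mouse as a replicate block turned Fosb in SkM against LV (-0.33) and Jun in the interaction (0.0025). DESeq2 called 1 gene in the interaction. Total counts without TMM gave 5 called members and 68.6% of all genes called in SkM against LV and turned Fosb (-0.43), Egr2 (-0.16) and Dusp1 (-0.50) there. Subtracting the skeletal share turned Nr4a1 in the interaction (-0.13). The cause was not tested. The blocks changed no call of a member, and with the mouse as a block 7972 genes were called in SkM against LV, against 8579.

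Leaving out each library in turn gave 0 to 578 called genes in LV between the genotypes and 0 to 2 members, 1 to 3 members and 7167 to 8942 genes in SkM against LV, and 0 to 154 genes in the interaction, the highest counts but those of SkM against LV being without WT LV replicate 1. The sign changed in these ranges of the log2 fold change. In LV between the genotypes, Jun ranged from -0.30 to 0.47 and Atf3 from -0.19 to 1.64. In SkM, Fosb ranged from -1.48 to 2.59, Jun from -0.059 to 0.34, Junb from -0.88 to 0.13, Ier2 from -0.066 to 1.28 and Dusp1 from -0.15 to 0.32. In SkM against LV, Fosb ranged from -1.39 to 0.60, Egr2 from -0.12 to 0.77 and Atf3 from -1.17 to 0.15. In the interaction, Fos ranged from -0.085 to 0.95, Fosb from -0.63 to 3.64, Jun from -0.32 to 0.47, Egr1 from -0.040 to 2.57, Atf3 from -0.68 to 1.97, Ier2 from -0.62 to 0.61, Nr4a1 from -0.29 to 0.67 and Dusp1 from -0.42 to 0.070. With 1 WT library left, its spread is assumed to be that of the E0del/+ libraries. Fosb and Egr2 rest on at most 31 counts a library.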
